A study of Sus scrofa domesticus with 16 samples.

Results

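The genes described here encode 4 short-chain dehydrogenases that act on steroids and related lipids: HSD11B1 and HSD11B2, which interconvert cortisone and cortisol, and HSD17B4 and HSD17B12, classed as 17-beta hydroxysteroid dehydrogenases. They were taken from the array's annotation by gene symbol, which gave 1 probe set per gene, so 4 of the 6765 genes named on the array and 4 of its 23999 probe sets that are not controls. All 4 probe sets passed the filter on dim probe sets (a mean log2 signal of at least 6.15), which kept 14399 probe sets.

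HSD11B1 works mainly as a reductase in the endoplasmic reticulum, where it makes active cortisol from inactive cortisone with NADPH, and it is best known from liver and fat. HSD11B2 runs the reaction the other way with NAD and turns cortisol into cortisone. In the kidney it keeps cortisol away from the mineralocorticoid receptor. HSD17B4 is the D-bifunctional protein of peroxisomes, which carries out the middle steps of beta-oxidation of very long and branched fatty acids and can also oxidise estradiol. HSD17B12 reduces the 3-ketoacyl-CoA intermediate in fatty acid elongation, and the human enzyme can also reduce estrone to estradiol. These roles are known chiefly from human and rodent work.

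RNA came from whole adrenal glands of 16 domestic pigs, 1 Affymetrix porcine genome array each. The 8 animals labelled high stress came from the mixing treatment with high aggressiveness, and the 8 labelled low stress came from the one with low aggressiveness. According to the submitters, the groups were chosen for comparison and differed in aggressive behaviour and in cortisol in plasma. Every animal in both groups had been mixed with unfamiliar pigs, so no unmixed animals enter the comparison, and no breed, age or time after mixing is given by the labels. The comparison asks how the 2 groups differ in adrenal gene expression. In whole glands, fewer cells of a type and less RNA per cell cannot be told apart.

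Array medians of the signal were 116 to 147. The defining genes of the cortex and medulla were bright in all 16 animals: the log2 signal of STAR, which delivers cholesterol to the mitochondrion, was 14.49 to 15.03, and that of PNMT, which makes adrenaline, was 12.86 to 14.05. The signal of dap, a bacterial control RNA added during labelling, split the arrays into a high-spike set (mean 4237 for its middle probe set) and a low-spike set (mean 623), with 4 high stress and 4 low stress animals in each. The labels do not mention these sets. Over all 14399 probe sets tested, 5767 (40.1%) differed between the sets with limma at an adjusted p under 0.05, so values within each set stand beside the results below.

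HSD11B2, the enzyme that inactivates cortisol, had the widest spread of the 4 and a lower mean in high stress glands, but the difference did not pass the test. Its signal (gene ID 396948) was 1406 at the lowest, 4106 at the median and 6977 at the highest among high stress animals, and 2183, 5372 and 9141 among low stress animals. The groups overlapped over most of their range. The lowest of all 16 was high stress replicate 7, and the highest was low stress replicate 5. The mean signal was 4074 ± 1609 in high stress glands and 5690 ± 2125 in low stress glands (SD, n = 8 each). On the log2 scale the means were 11.87 ± 0.68 for high stress and 12.37 ± 0.63 for low stress.

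The log2 difference, high minus low stress, was -0.50 (SE 0.30, 95% confidence interval -1.13 to 0.13), a ratio of 0.708 (0.457 to 1.097). Among the 8 high stress values 7 were below the low stress mean. With limma, after Benjamini-Hochberg adjustment over all 14399 probe sets, the adjusted p was 0.999, and the exact two-sided permutation p over 12870 splits was 0.152. None of the 4 enzymes passed at an adjusted p under 0.05, nor did any of the 14399 probe sets (0%). None of the 4 had an unadjusted limma p under 0.05 either, against 460 (3.19%) of all probe sets tested, 183 higher and 277 lower in high stress. That split turned to 240 higher and 185 lower after quantile normalization. All 4 enzymes had overlapping groups, as did all but 0.0208% of the probe sets tested.

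The HSD11B2 difference was of like size in the 2 sets of arrays, at -0.47 (SE 0.25) among low-spike arrays and -0.52 (SE 0.44) among high-spike arrays. Its unadjusted limma p was above 0.05 in each, as was that of the other 3 enzymes, where 7.38% of all probe sets on the low-spike arrays and 2.83% on the high-spike arrays were under it. With the set as a block it was -0.50 (SE 0.27, limma adjusted p = 0.795), and none of the 4 enzymes had an unadjusted p under 0.05, against 6.38% of all probe sets. With that block 1 of the 14399 probe sets (0.00694%) passed, namely NPM3, which codes for a chaperone of the nucleolus and is named here after its value was seen. The size of the HSD11B2 difference leaned on single animals. It was -0.30 without high stress replicate 7, the lowest animal, and -0.68 without low stress replicate 6, the lowest of its group. Without both it was -0.48 (SE 0.20), with an unadjusted limma p of 0.0298 and an adjusted p of 0.9997. These 2 animals were picked by their HSD11B2 values, which narrows its spread, so that unadjusted p cannot be read as a test. In that fit 325 of the 14399 probe sets had an unadjusted p under 0.05. Over all 17 alternatives its adjusted p was between 0.720 and 0.9999.

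The animal numbers in the labels begin with 3, 4, 5 or 8, and each first digit covers 2 high stress and 2 low stress animals. The labels do not say what this digit stands for. The HSD11B2 difference was -1.29 among animals numbered with 8 and -0.67 among those with 3. It was -0.10 among those with 5 and 0.07 among those with 4. These 4 differences rest on 4 animals each and were not tested against each other.

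**Figure D1:**
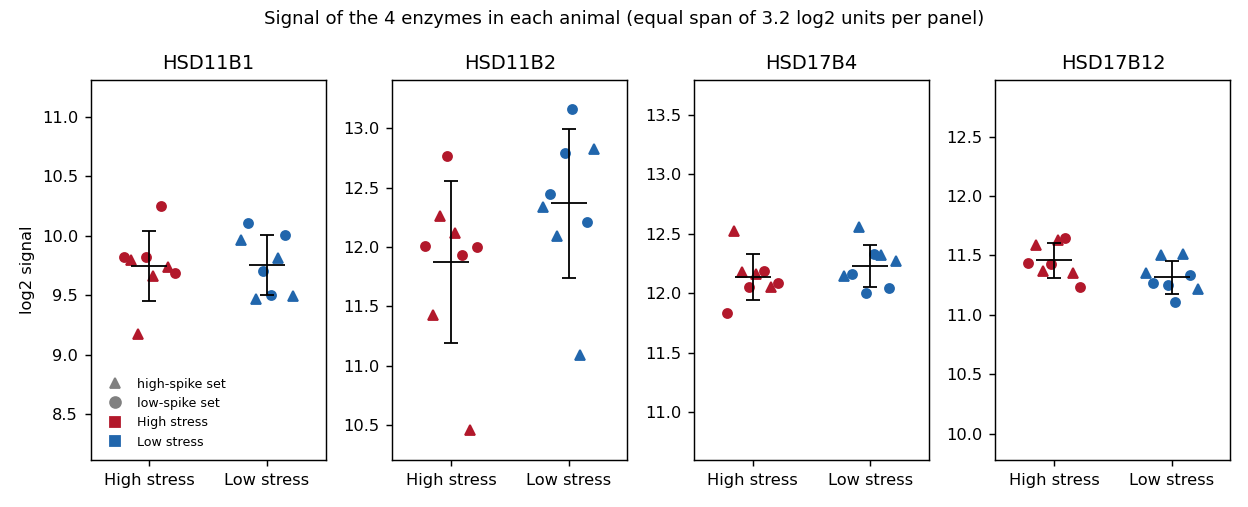
Log2 signal (vertical axis) of HSD11B1, HSD11B2, HSD17B4 and HSD17B12 in each animal of the high stress and low stress groups, with 8 animals a group; triangles are arrays of the high-spike set, circles of the low-spike set, and black marks give mean and SD. Each panel spans 3.2 log2 units, and HSD11B2 is the most widely spread, with high stress replicate 7 lowest.

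HSD11B1, which regenerates cortisol, had nearly the same mean in both groups. Its signal (gene ID 397480) was 578 at the lowest, 870 at the median and 1219 at the highest in high stress, and 709, 866 and 1103 in low stress. The high stress animals held both the lowest and the highest value of all 16, and the low stress animals lay between them. The mean log2 signal was 9.74 ± 0.29 in high stress glands and 9.76 ± 0.25 in low stress glands (SD, n = 8 each). The log2 difference was -0.01 (SE 0.14, 95% confidence interval -0.31 to 0.28), a ratio of 0.991 (0.809 to 1.21), with an adjusted limma p of 0.999 and an exact permutation p of 0.925. Around the low stress mean the high stress values split evenly, 4 above and 4 below. The difference had opposite signs in the sets, 0.07 (SE 0.18) among low-spike arrays and -0.09 (SE 0.18) among high-spike arrays. A term for the difference between the sets gave -0.16 (SE 0.26, limma adjusted p = 0.9996). In that test 0 of 14399 probe sets (0%) passed, and 421 (2.92%) had an unadjusted p under 0.05, none of the 4 enzymes among them.

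The balance of the pair was read as the log2 signal of HSD11B1 minus that of HSD11B2 in the same animal. Its level depends on the probes and has no meaning of its own, so only its change between groups was read. It was -3.08 at the lowest, -2.25 at the median and -0.72 at the highest in high stress, and -3.66, -2.50 and -1.28 in low stress. The ranges overlapped, and 6 of 8 high stress values exceeded the mean of low stress. The mean was -2.13 ± 0.77 in high stress glands and -2.61 ± 0.75 in low stress glands (SD, n = 8 each). The difference of 0.48 corresponds to 1.40-fold more HSD11B1 signal relative to HSD11B2 in high stress and did not pass an exact two-sided permutation test (p = 0.223, and 0.222 over the 4900 splits that keep each set's group sizes). It was 0.54 among low-spike arrays and 0.43 among high-spike arrays. Without high stress replicate 7 it was 0.28.

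HSD17B4, the peroxisomal enzyme, differed little between the groups. Its signal (gene ID 397574) was 3656 at the lowest, 4454 at the median and 5893 at the highest in high stress, and 4096, 4759 and 6022 in low stress. In each group 1 animal stood above the others, high stress replicate 2 and low stress replicate 3, both on arrays of the high-spike set. The mean log2 signal was 12.13 ± 0.19 in high stress glands and 12.23 ± 0.18 in low stress glands (SD, n = 8 each). The log2 difference was -0.09 (SE 0.11, 95% confidence interval -0.32 to 0.13), a ratio of 0.937 (0.802 to 1.09), with an adjusted limma p of 0.999 and an exact permutation p of 0.333. All but 1 of the high stress values, 7 in number, were below the low stress mean. The difference was -0.09 in each set.

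HSD17B12, the elongation enzyme, was the steadiest of the 4 from animal to animal and had the larger mean in high stress. Its signal (gene ID 100312972) was 2409 at the lowest, 2757 at the median and 3208 at the highest in high stress, and 2210, 2524 and 2928 in low stress. High stress replicates 2, 5 and 6 lay above every low stress animal, and the other 5 lay within the low stress range. The mean log2 signal was 11.46 ± 0.15 in high stress glands and 11.32 ± 0.14 in low stress glands (SD, n = 8 each). The log2 difference was 0.14 (SE 0.09, 95% confidence interval -0.05 to 0.33), a ratio of 1.104 (0.966 to 1.26). It did not pass limma (adjusted p = 0.999) or the exact permutation test (p = 0.0681, and 0.0604 with labels exchanged within the sets). High stress values exceeded the mean of low stress in 7 of 8 animals. The difference was 0.19 (SE 0.12) among low-spike arrays and 0.09 (SE 0.14) among high-spike arrays, and 0.14 (SE 0.08, limma adjusted p = 0.799) with the set as a block.

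**Figure D2:**
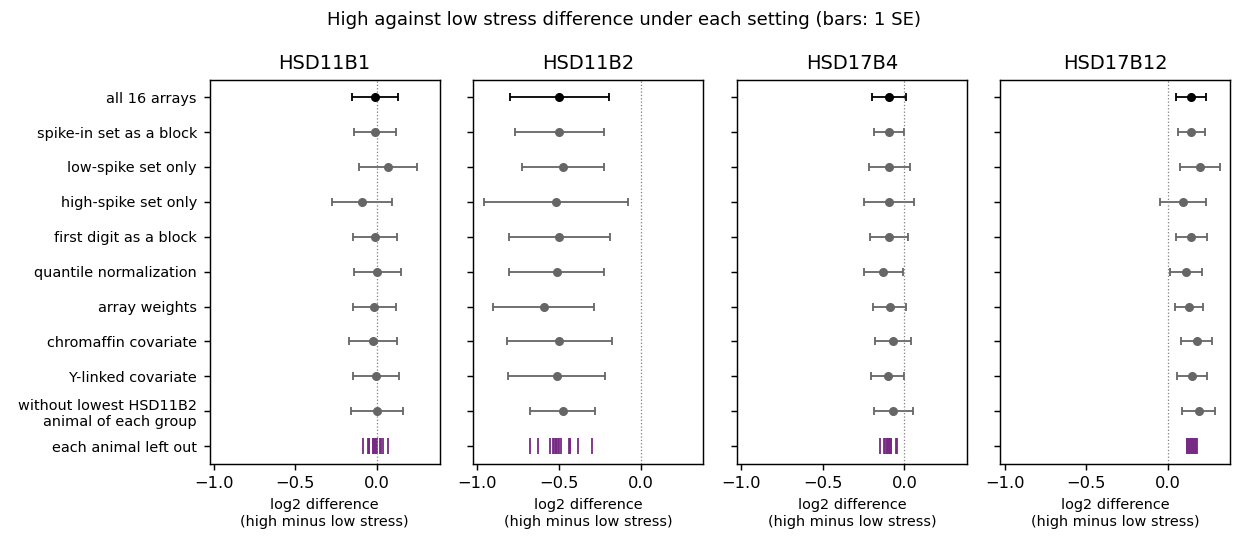
Log2 difference, high minus low stress (horizontal axis), of each enzyme under 10 settings, with bars of 1 SE, and in the bottom row 1 tick for each of 16 fits that leave out 1 animal. The estimates of HSD11B2 and HSD17B4 stay below 0 and those of HSD17B12 above 0 throughout, and HSD11B1 lies on both sides of 0. Bars of 1 SE cross 0 for HSD17B4 over all 16 arrays (-0.09, SE 0.11) and for HSD17B12 among high-spike arrays (0.09, SE 0.14).

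The spread between animals differed much among the 4 enzymes. The highest animal exceeded the lowest by 6.50-fold for HSD11B2, 2.11-fold for HSD11B1, 1.65-fold for HSD17B4 and 1.45-fold for HSD17B12. The SD of HSD11B2 within the stress groups, 0.65 on the log2 scale, was larger than that of 92.3% of all probe sets tested, and of 98.5% of the 605 probe sets whose mean log2 signal lay within 0.5 of its own. HSD11B1, with an SD of 0.27, exceeded 52.1% of the 2390 probe sets of like level. HSD17B4, at 0.19, exceeded 31.5% of 578, and HSD17B12, at 0.14, exceeded 10.5% of 1049. These shares describe the arrays and were not tested.

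In 3 of the 4 enzymes more of this spread lay between the sets of arrays than between the stress groups. For HSD11B2 the set held 19.8% of the sum of squares between animals and the stress group 14.2%. The shares were 19.1% and 0.0632% for HSD11B1, and 27.4% and 6.72% for HSD17B4. For HSD17B12 they were 11.4% for the set and 22.02% for the stress group. None of the 4 was called between the sets, where 40.1% of all probe sets were. HSD11B2 averaged 11.83 ± 0.77 in the high-spike set and 12.41 ± 0.45 in the low-spike set (SD, n = 8 each; log2 difference -0.59, SE 0.27, limma adjusted p = 0.0937). For HSD17B4 the difference between the sets was 0.19 (SE 0.09, adjusted p = 0.108), for HSD11B1 -0.22 (SE 0.13, adjusted p = 0.169), and for HSD17B12 0.10 (SE 0.08, adjusted p = 0.340).

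The 4 enzymes did not vary together across animals in a way that passed the test. Pearson's r and Spearman's rho were computed for the 6 pairs over all animals and within each set, and p-values were adjusted over these 18 relations. The smallest adjusted p was 0.480 for r and 0.162 for rho. HSD11B2 and HSD17B12 had the smallest p over all 16 animals, with r = -0.49 (permutation p = 0.0533, adjusted 0.480) and rho = -0.64 (permutation p = 0.00902, adjusted 0.162). Without the 2 animals farthest from the median of HSD11B2 r was -0.72. For the low-spike arrays r was -0.61 and rho -0.57, and for the high-spike arrays r was -0.30 and rho -0.48 (exact permutation p of r = 0.102 and 0.471, n = 8 each). Leaving out the 2 farthest animals made these r -0.23 and -0.81. With the means of stress group and set removed, r over all 16 animals was -0.24.

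HSD11B1 and HSD17B12 had r = 0.75 and rho = 0.79 in the low-spike set (exact permutation p = 0.0330 and 0.0279, adjusted 0.480 and 0.251, n = 8). Without the 2 animals farthest from the set's median of HSD11B1 r was 0.09. These were its highest and lowest animals of the set. Leaving them out narrows the spread of HSD11B1, so this r cannot show what the relation rested on. In the high-spike set r was 0.24 and rho 0.05, and over all animals r was 0.28 and rho 0.22 (permutation p = 0.290 and 0.403). With the means of stress group and set removed it was r = 0.60 over all 16 animals, given as a description. The opposed pair of cortisol enzymes, HSD11B1 and HSD11B2, had r = -0.18 and rho = -0.21 over all animals (permutation p = 0.506 and 0.430). For the low-spike arrays these were -0.60 and -0.55, and for the high-spike arrays -0.40 and -0.26 (exact permutation p of r = 0.117 and 0.320). Without the 2 animals of each set farthest from its median of HSD11B1 r was -0.04 and -0.77. Over all 16 animals r was -0.52 once stress and set means were removed, likewise a description with no test.

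Each enzyme was also set against all other named probe sets, to find the genes whose pattern across the 16 animals was most like it once the means of stress group and set were removed. For HSD11B2 the 5 genes with the highest Pearson r were SFT2D1 (0.95), MC2R (0.84), IGBP1 (0.79), OAF (0.78) and MARCO (0.77), out of 7271 named probe sets ranked. SFT2D1 belongs to a family of Golgi transport proteins, MC2R is the corticotropin receptor that drives cortisol synthesis, and MARCO is a scavenger receptor of macrophages. All points share arrays and their scaling, and the genes were picked as the most alike, so these r carry no p.

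The likeness of MC2R and HSD11B2 appeared only once the sets were taken apart. Over all 16 animals, with no means removed, their r was 0.07. It was -0.06 among high stress and 0.23 among low stress animals, with the sets mixed (n = 8 each). With stress means removed, r was 0.91 for the low-spike arrays and 0.98 for the high-spike arrays (n = 8 each). MC2R had a log2 signal of 8.81 ± 0.29 in the high-spike set and 8.12 ± 0.25 in the low-spike set (SD, n = 8 each), a difference of 0.69 (SE 0.14, limma adjusted p = 0.000894), opposite in sign to that of HSD11B2. In high stress replicate 7, where HSD11B2 was lowest, MC2R was at 8.51, the lowest high stress value of the high-spike set. In low stress replicate 6, the next lowest HSD11B2 value, MC2R was at 8.31, the lowest of that whole set. With stress and set means removed, r was 0.84 over all 16 animals and 0.75 without these 2 animals. A second probe set of MC2R, at a mean log2 signal of 4.10 and below the filter, had r = -0.20.

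SFT2D1 followed HSD11B2 with r = 0.76 over all animals with no means removed, and 0.95 with stress and set means removed. The latter fell to 0.88 without the 2 lowest HSD11B2 animals. With stress means removed, r was 0.85 for the low-spike arrays and 0.98 for the high-spike arrays. Neither gene differed detectably between the stress groups, at -0.03 (95% confidence interval -0.29 to 0.22) for SFT2D1 and -0.08 (-0.53 to 0.38) for MC2R on the log2 scale, both with an adjusted limma p of 0.999.

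**Figure D3:**
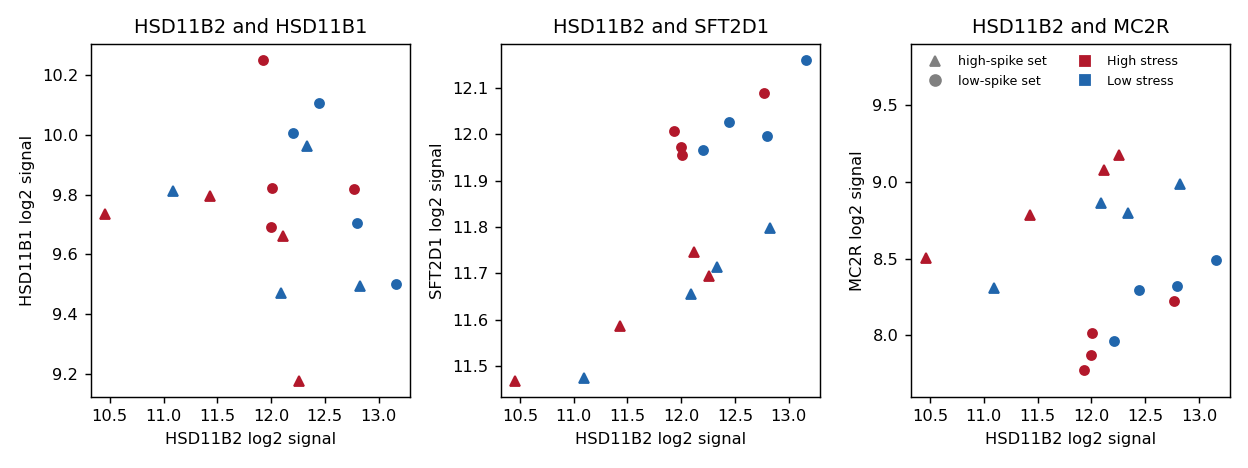
Log2 signal of HSD11B2 (horizontal axis) against that of HSD11B1, SFT2D1 and MC2R (vertical axes), 1 point per animal; triangles are the high-spike set, circles the low-spike set, and colour gives the stress group. The signals are drawn with no means removed, and r of MC2R with HSD11B2 is then 0.07 over all 16 animals. MC2R rises with HSD11B2 within each set and is on average higher in the high-spike set. With stress means removed, which is not drawn, r is 0.91 for the low-spike and 0.98 for the high-spike set.

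The genes most like HSD11B1 were HMOX1 (r = 0.85), which breaks down haem, C8H4orf48 (0.84), PABPC4 (0.83), which binds the poly(A) tail, LOC102157641 (0.83) and RAB13 (0.83), a small GTPase of vesicle traffic. Those most like HSD17B4 were ISOC1 (0.90), BLOC1S2 (0.87), a subunit of a lysosome-related complex, SMAP1 (0.81), GTPBP10 (0.80) and the apoptosis protease CASP8 (0.78). Those most like HSD17B12 were EML4 (0.84), which binds microtubules, SMAD3 (0.83), which carries TGF-beta signals, RPL6 (0.75), ARID2 (0.75) and CCDC84 (0.75). All these r have the stress and set means removed. With no means removed r was 0.23 for BLOC1S2, 0.25 for SMAP1 and 0.25 for SMAD3. The other genes of these lists then had 0.46 (CCDC84) to 0.87 (C8H4orf48). Another probe set of the same gene did not always bear the pattern out. It gave -0.23 for RPL6, where this other probe set was the brighter (mean log2 signal 14.25 against 8.09), and -0.22 for SMAP1. It gave 0.74 for OAF beside HSD11B2, 0.60 for EML4, 0.55 for ISOC1, and 0.57 and 0.59 for 2 further probe sets of GTPBP10. Other probe sets of C8H4orf48 (-0.18) and MARCO (0.21) lay below the filter.

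Genes around the 4 enzymes were read from lists chosen with earlier results of these data known, through the brightest probe set of each gene. No gene of any list passed at an adjusted p under 0.05, and the median log2 difference over all probe sets tested was -0.03. Of 10 measured genes of steroid hormone synthesis 8 passed the filter, 4 higher and 4 lower in high stress, with a median of 0.01 and a range of -0.14 to 0.11. FDXR, which feeds electrons to the mitochondrial P450 enzymes, had 0.11 (SE 0.08), and POR, which serves those of the endoplasmic reticulum, had 0.11 (SE 0.11).

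Among other 17-beta hydroxysteroid dehydrogenases and their kin, 8 were measured and 6 tested, 4 higher and 2 lower, with a median of 0.07. HSD17B7, which acts on sterol intermediates of cholesterol synthesis, had the smallest p of the list. Its log2 signal was 9.19 ± 0.64 in high stress glands and 8.11 ± 0.53 in low stress glands (SD, n = 8 each). The difference of 1.08 (SE 0.27) had an unadjusted limma p of 0.000900 and an adjusted p of 0.999, and so did not pass. HSD17B10, a mitochondrial enzyme of amino acid breakdown, had 0.15 (SE 0.16). HSD17B1 and HSD17B2, which interconvert estradiol and estrone, had mean log2 signals of 6.08 and 5.70, below the filter (chosen for mention after their values were seen).

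Genes of cofactor supply and of the corticosteroid receptors gave 3 higher and 2 lower of 5 tested, with a median of 0.01. NR3C1, the glucocorticoid receptor through which cortisol acts, was dim, with 6.27 ± 0.57 in high stress glands and 6.74 ± 0.39 in low stress glands (SD, n = 8 each). The NR3C1 difference of -0.47 (SE 0.23) did not pass the limma test across all probe sets, with an adjusted p of 0.999. It was -0.75 among low-spike arrays and -0.19 among high-spike arrays. NR3C1 was among the 14399 probe sets in the limma test of the difference between the sets, where 0 passed at an adjusted p under 0.05. NNT, which makes mitochondrial NADPH, had -0.14 (SE 0.15). PGD, which makes NADPH in the pentose phosphate pathway, had 0.04 (SE 0.13). Neither was tested for a part in the NADPH that HSD11B1 uses in the endoplasmic reticulum. Of the transcription factors known to act on HSD11B1, 7 were measured and 3 tested, all higher, with a median of 0.06. CEBPD had 0.24 (SE 0.14), NR1H3 0.06 (SE 0.10) and CEBPB 0.04 (SE 0.15).

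The peroxisomal partners of HSD17B4 were lower in 14 and higher in 4 of 18 tested, with a median of -0.05. Over all probe sets tested 41.6% were higher in high stress. ACAA1, the thiolase that acts on the product of HSD17B4, had 0.27 (SE 0.13), against -0.24 (SE 0.15) for the membrane assembly factor PEX3. PHYH, which starts the alpha-oxidation of phytanic acid, had -0.35 (SE 0.23), and SCP2, a thiolase and sterol carrier, had -0.24 (SE 0.19). The partners of HSD17B12 in fatty acid elongation and activation were higher in 4 and lower in 6 of 10 tested, with a median of -0.04, which turned to 0.01 after quantile normalization. The acyl-CoA synthetase ACSL6 had -0.38 (SE 0.16), the elongases ELOVL1 and ELOVL6 had 0.23 (SE 0.13) and 0.31 (SE 0.24), and the desaturase FADS1 had 0.27 (SE 0.18).

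**Figure D4:**
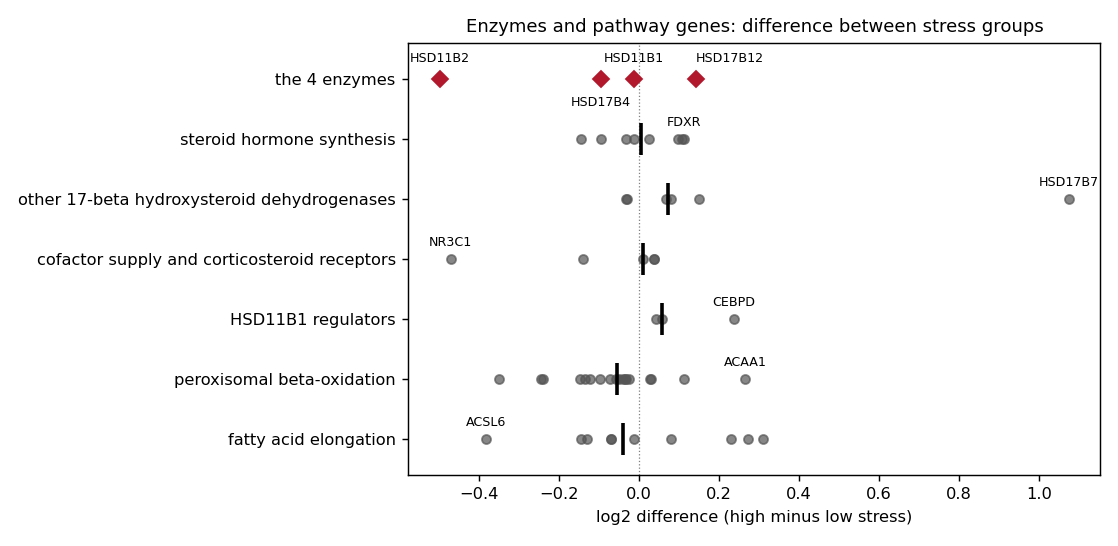
Log2 difference, high minus low stress (horizontal axis), of the 4 enzymes (diamonds) and of the tested genes of 6 pathway lists (circles, with a black bar at each median); the gene with the smallest p of each list is named. HSD17B7 lies far to the right at 1.08, and HSD11B2 lies at the far left at -0.50.

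Markers of other cell types were read beside the enzymes, since HSD11B1 is rich in liver and HSD11B2 in kidney. Both measured kidney tubule genes, SCNN1B and KCNJ1, were below the filter, with mean log2 signals of 3.87 and 2.93, and at most 6.07 and 4.95 in any animal. Of 7 measured liver genes 2 passed the filter. In low stress replicate 6 the signals of 4 of the 7 were the highest of all animals, among them ALB at 9.36 and FGB at 7.82, named after their values were seen. The same animal had the highest mean of all 16 for adipocyte markers (8.32) and for fibroblast and capsule markers (9.84). HSD11B2 was at 11.09 in this animal, the lowest of low stress, and HSD11B1 ranked 7 from the top of 16. Without it the HSD11B1 difference was -0.01 and that of HSD11B2 -0.68. The part of liver, fat or capsule RNA in these values was not tested otherwise.

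Of 9 marker lists with at least 2 genes above the filter, none differed between the stress groups by an exact permutation test (adjusted p = 0.881 for each). Chromaffin cell markers averaged 11.94 ± 0.41 in high stress glands and 11.73 ± 0.34 in low stress glands, and zona glomerulosa markers 11.02 ± 0.23 for high stress and 11.04 ± 0.22 for low stress (SD, n = 8 each; exact permutation p = 0.282 and 0.881). Smooth muscle markers had the largest difference of the 9 lists, with 9.95 ± 0.32 for high stress and 9.65 ± 0.53 for low stress (n = 8 each; exact permutation p = 0.192). All 5 of them were higher in high stress, 2 at an unadjusted limma p under 0.05 and 0 at an adjusted one. Over all probe sets tested 41.6% were higher in high stress, and 3.19% had an unadjusted p under 0.05 in either direction. The summed signal of the 5 smooth muscle markers was 7031 to 19048 in high stress and 3667 to 18973 in low stress. Of the other 6 lists, the difference was -0.09 for adipocyte, -0.08 for myeloid and -0.08 for fibroblast and capsule genes. It was -0.07 for liver and -0.05 for endothelial genes, and -0.03 for the haemoglobin list. That last list rested on 2 genes of opposite sign, HBB (-0.29, SE 0.25) and the haem synthesis enzyme ALAS2 (0.23, SE 0.23). The summed signal of the 7 chromaffin markers was 35584 to 63825 in high stress and 32458 to 59656 in low stress, and that of the 5 zona glomerulosa markers was 17031 to 21162 in high stress and 16574 to 24072 in low stress. With the chromaffin mean as a covariate the HSD11B2 difference was -0.50 (SE 0.32). In high stress replicate 7, the animal with the least HSD11B2, the zona glomerulosa mean was the highest of all 16, at 11.40, and its part in that value was not tested.

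Across the 16 animals, with stress and set means removed, the marker lists were also set against the enzymes, again as a description that shares arrays and scaling. HSD11B2 had r = 0.56 with the haemoglobin list, the mean of HBB and ALAS2. It had -0.43 with smooth muscle, -0.39 with zona glomerulosa and -0.37 with liver markers. HSD17B12 had 0.67 with the 3 fibroblast and capsule markers. For HSD11B1 the r farthest from 0 was 0.43, with endothelial markers, and for HSD17B4 it was -0.46, with smooth muscle markers. The part of these cell types in the enzymes' values was not tested.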

How the data were processed

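According to the submitters' processing notes, Affymetrix Expression Console 1.1.1 and MAS5 gave the deposited values, which are linear intensity signals of 1 porcine genome array per animal. In each deposited column the mean without the highest and lowest 2% was 500, so the authors had scaled each array as a whole. No scans or detection calls were used here. Values were taken to log2, 124 controls were set aside, and probe sets with a mean under the 40th percentile were left out. Of 23999 probe sets 10069 had 1 gene symbol, 198 several and 13732 none. The labels give no replicate numbers, so replicates are numbered in the order of the samples.

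For the stress groups the test was a two-sided moderated fit (limma 3.58.1, lmFit and eBayes, under R 4.3.3), adjusted over 14399 probe sets by Benjamini-Hochberg, and single values with exact permutation tests. Each animal is 1 array, so precision is limited by how many arrays there are. The sets of arrays were found by the widest gap in dap signal. Correlations used 100000 permutations, or all 40320 pairings within a set. Genes named are the 4 enzymes, the 2 to 4 with the smallest p per pathway list and the 5 most like each enzyme. STAR and PNMT are named as checks of the tissue and SCNN1B and KCNJ1 as all the measured kidney markers. HBB and ALAS2 are named as all the genes of the haemoglobin list above the filter. The text says where another gene was picked with its value known, and EIF1AY serves only as a covariate. The lists and members were chosen with earlier results of these data known. The fits were tested on simulated data. Alternatives were other filters (none, 60th percentile), scalings, a pseudocount of 23.5, a trend with a robust prior, array weights, blocks, covariates (chromaffin mean, the Y-linked EIF1AY) and leaving out animals. The EIF1AY signal was above the filter in 4 high stress and 4 low stress animals. The fits with 2 blocks, with quantile normalization beside a block, and without the lowest HSD11B2 animals were added after the data were seen.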

Additional observations from a re-analysis of the deposited data

Results flagged for a closer look

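None of the 4 enzymes, nor the HSD11B1 minus HSD11B2 balance, had an animal set far apart from the other 7 of its group by Dixon's ratio. Among the other values given, 8 of 104 sets of 8 animals had one, and chance gives about 1 in 20. These values share animals and are not independent, so the 2 shares were not tested against each other. IGBP1, MARCO and ISOC1 were picked as most like an enzyme across these same animals, so sharing its extreme animals is partly built in. IGBP1, alike to HSD11B2, was at 10.57 in high stress replicate 7, the animal with the least HSD11B2, against 11.03 for the next lowest. MARCO was at 8.22 in low stress replicate 5, the animal with the most HSD11B2, against 6.78 for the next highest. ISOC1, alike to HSD17B4, was at 10.63 in high stress replicate 2, which also had the most HSD17B4 of its group. PHYH was at 10.94 in low stress replicate 3, where HSD17B4 was highest of all animals. NNT was at 9.72 in high stress replicate 6 and, set apart upward, at 11.07 in low stress replicate 3. The mean of the endothelial markers was 9.07 in low stress replicate 3, and that of the liver markers was 8.52 in high stress replicate 3, which had the least HSD11B1.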

How the results depend on the processing

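No enzyme passed an adjusted p under 0.05 in any of 17 alternatives each, nor in 16 fits leaving out 1 animal. HSD11B2 (-0.59 to -0.46), HSD17B4 (-0.13 to -0.05) and HSD17B12 (0.09 to 0.19) kept their sign in all of these. HSD11B1 turned to 0.027 with centring on the median and 0.066 within the low-spike set. Leaving out single animals gave -0.085 to 0.068 for HSD11B1, -0.68 to -0.30 for HSD11B2, -0.15 to -0.05 for HSD17B4, 0.11 to 0.17 for HSD17B12 and 0.28 to 0.68 for HSD11B1 minus HSD11B2, whose 5 alternatives gave 0.47 to 0.52. The count of probe sets called was 0, and 1 with the set as a block, alone or after quantile normalization. At an unadjusted p under 0.05 the 460 became 906 without a filter and 289 with the stricter one, as more or fewer were tested. They became 786 with array weights, 919 with the set as a block, 913 with both blocks and 842 with quantile normalization and the set; the cause was not tested. The labels give no replicate numbers to pair animals by. With a block for the leading digit of the animal numbers, which matches 2 animals of each stress group, the 4 differences were the same and each adjusted p was 0.999. Each gene has 1 probe set, so isoforms and disagreement between probes could not be checked.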
